A study of Mus musculus with 8 samples.

Results

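Kinesins are motor proteins that hydrolyse ATP to walk along microtubules or to take microtubule ends apart. Genes were taken as kinesins where the symbol in the platform's probe annotation begins with Kif followed by a digit or with Kifc, which gave 29 genes read by 51 probes, out of 16593 genes and 25697 probes on the array. By their known roles, 10 of the 29 act mainly in mitosis, 13 mainly carry cargo, and 6 fall in neither class. Kinesins whose symbols do not follow this form, such as Cenpe, are outside the set. The study hybridised RNA to MouseRef-8 v2.0 bead arrays from Illumina, 1 array for each sample, from 3 samples of neurons and 5 samples of neural stem cells (NSCs). The neurons came from such NSCs, which had been moved for 4 days into the serum-free medium N2B27, replated in Neurobasal with B27, and sorted for the red fluorescent protein RedStar under the control of the Tau (Mapt) promoter. The NSCs came from mouse embryonic stem cells, were grown in Euromed-N with N2, FGF2 and EGF, and carry the label No for Tau-RedStar expression. All samples are labelled C57BL/6, and no label says whether replicates of a group were grown apart, so the spread behind each p-value is that between these samples and may be technical only. The labels do not say how many embryonic stem cell lines were used.

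In a dividing cell, mitotic kinesins push the spindle poles apart, move and align chromosomes, trim microtubule ends and organise the midzone where the cell divides. Their transcripts accumulate mainly in G2 and M phase, so cells that have left the cell cycle carry little of them. Cargo kinesins work throughout the life of a cell. In neurons they take vesicles, mitochondria and receptors from the cell body into axons and dendrites, with members of the kinesin-1, kinesin-2 and kinesin-3 families doing most of the outward transport in axons.

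The arrays were alike in brightness, with a median signal between 80.3 and 84.7 and 36.5% to 39.7% of probes above background, which means a detection p below 0.01. Signals were corrected for background, quantile normalized and put on a log2 scale, so a difference is always relative to the rest of the array. Differences are neuron minus NSC, and a gene is called where the adjusted p from limma is below 0.05. The markers of the sort matched the labels in part. Of 12 neuronal marker genes 7 were tested and called higher in neurons, a direction called for 35.4% of all genes. Of these 7, the probes used for Mapt, Dcx, Rbfox3 and Gap43 were above background on neuron arrays alone and so could only differ upward. Another Mapt probe was above background on 1 NSC array. The neurons were sorted through the Mapt promoter, so a higher Mapt signal is no separate check of the label. Map2, Ncam1 and Syn1 were above background on all arrays. The summed linear level of the 7 was 6374 to 8337 on the neuron arrays and 3069 to 3934 on the NSC arrays. The other 5, Tubb3, Stmn2, Snap25, Elavl3 and Elavl4, were above background on no array. Of 11 markers of NSCs 8 were tested, all of them above background on every array of both groups: 4 were lower in neurons, Slc1a3 (-1.82), Fabp7 (-1.65), Hes5 (-1.18) and Vim (-0.59), 3 were higher, Olig2 (0.85), Egfr (0.61) and Sox2 (0.37), and Nes at -0.16 was not called. Their summed level was 11351 to 12168 in neurons and 20008 to 21428 in NSCs. The other NSC markers, Pax6, Sox1 and Nr2e1, and the pluripotency genes Pou5f1, Nanog and Zfp42 were above background on no array. Culture medium, sorting and position on the chip follow the groups and cannot be told apart from cell type.

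Of the 29 kinesins, 19 had a probe above background on at least 3 of the 8 arrays and were tested, and all 19 were called, 9 higher and 10 lower in neurons. Among all 7407 genes tested, 64.6% were called, 35.4% higher and 29.2% lower. The groups of arrays did not overlap for 17 of the 19 kinesins, against 61.1% of all genes. Of the 30 tested kinesin probes 28 were called, 12 higher and 16 lower, against 63.2% of all probes. Direction followed role. All 8 tested mitotic kinesins were lower in neurons, with a median log2 difference of -4.19, and 7 of the 8 tested cargo kinesins were higher, with a median of 0.94. The median over all genes was 0.06. Of the 3 tested kinesins in neither class, 2 were higher and 1 lower. The higher ones include Kif2a, which also acts at spindle poles and was not counted as mitotic. The filter fixed part of this pattern: 6 of the mitotic kinesins and Kif24 passed it by their NSC arrays alone, and the cargo kinesins Kif5a and Kif5c by their neuron arrays alone, so those genes could only differ in the direction seen. The 10 kinesins above background in both groups were 2 mitotic, 6 cargo and 2 other kinesins, of which 3 were lower (Kif18b, Kif22 and Kif1a) and 7 higher. Among all genes above background in both groups, 26.9% were called lower and 34.9% higher.

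**Figure D1:**
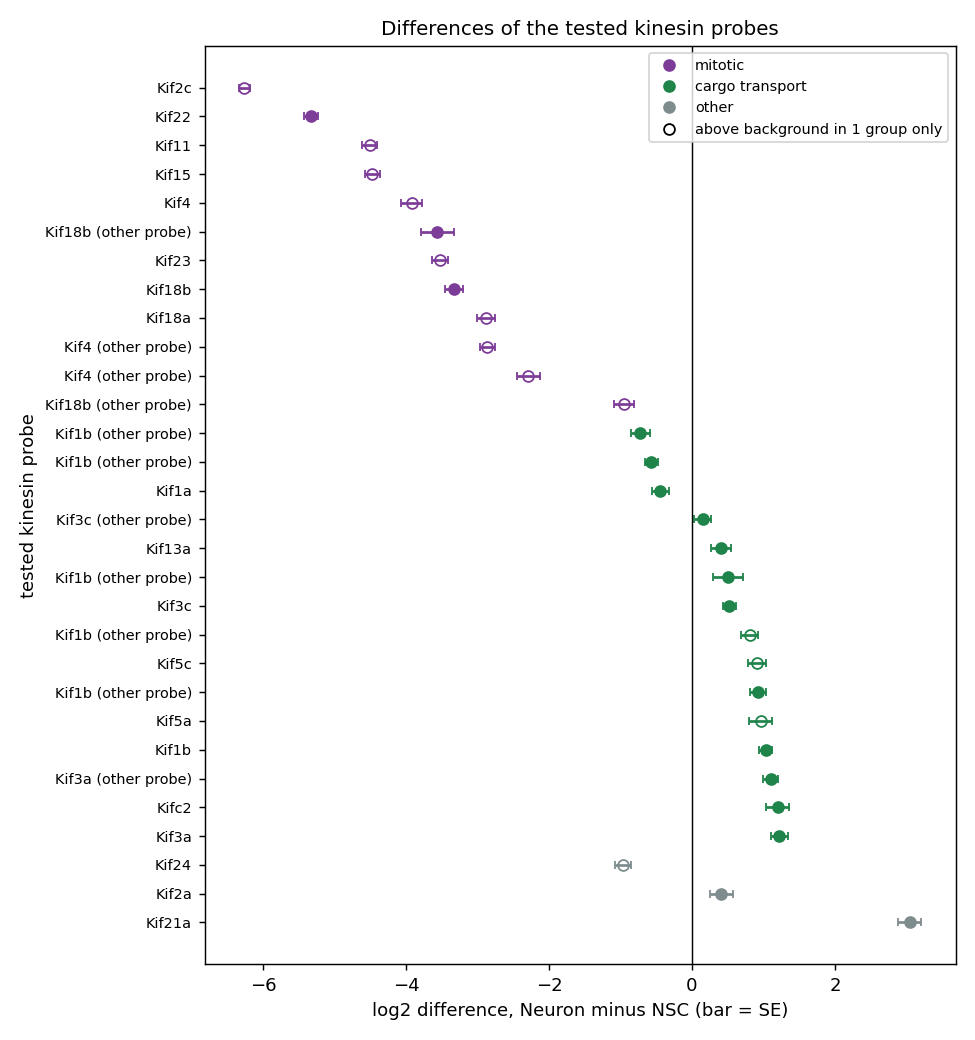
Log2 difference in normalized signal, neuron minus NSC (x axis), for each of the 30 tested kinesin probes (rows, grouped by role), with the standard error as a bar. Open circles are probes above background in 1 group only, whose difference is not fully measured; the mitotic probes lie left of 0, while the cargo probes lie between -0.72 and 1.22.

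The promoters of the mitotic kinesins are shown because these genes moved together and because 2 short motifs are known from promoters of this kind. TTTGAA is the core of the cell cycle genes homology region, an element through which genes of G2 and M phase are repressed in resting cells and switched on in dividing ones, and CCAAT is the box bound by the activator NF-Y. The sequences are from RefSeq on GRCm38.p6, run 5′ to 3′ on the strand of the gene, and cover 90 bases before and 30 bases from the annotated start. Capitals mark TTTGAA and CCAAT on either strand, so that TTCAAA and ATTGG are the same motifs read on the opposite strand. No capital stretches of different motifs overlap. The first 6 belong to mitotic kinesins and were picked because a TTTGAA match lies in this stretch. The last 2 belong to Kif3a and Kif21a, which were higher in neurons and lack such a match. Kif1a and Kif27, which are not mitotic, also hold a TTTGAA match in this stretch and are not shown.
Kif11, chr19:37376292-37376411, plus strand: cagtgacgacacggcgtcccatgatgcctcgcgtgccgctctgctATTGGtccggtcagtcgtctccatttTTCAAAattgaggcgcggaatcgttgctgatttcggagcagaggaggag
Kif15, chr9:122950991-122951110, plus strand: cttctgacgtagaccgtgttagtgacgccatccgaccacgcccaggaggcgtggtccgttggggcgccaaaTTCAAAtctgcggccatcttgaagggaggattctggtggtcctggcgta
Kif22, chr7:127042391-127042510, minus strand: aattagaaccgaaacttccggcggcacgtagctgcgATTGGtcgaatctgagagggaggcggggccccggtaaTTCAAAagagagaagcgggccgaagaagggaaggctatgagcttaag
Kif18b, chr11:102925095-102925214, minus strand: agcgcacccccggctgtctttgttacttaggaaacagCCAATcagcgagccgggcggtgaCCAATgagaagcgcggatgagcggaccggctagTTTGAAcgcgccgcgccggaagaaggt
Kif23, chr9:61946770-61946889, minus strand: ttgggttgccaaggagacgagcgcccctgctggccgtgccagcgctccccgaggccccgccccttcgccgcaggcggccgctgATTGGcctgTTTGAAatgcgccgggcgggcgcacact
Kif4, chrX:100625975-100626094, plus strand: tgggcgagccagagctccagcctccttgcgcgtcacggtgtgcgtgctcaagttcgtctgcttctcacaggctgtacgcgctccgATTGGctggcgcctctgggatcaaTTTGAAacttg
Kif3a, chr11:53567279-53567398, plus strand: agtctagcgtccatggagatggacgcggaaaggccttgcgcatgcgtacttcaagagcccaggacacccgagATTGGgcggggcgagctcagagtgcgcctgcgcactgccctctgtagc
Kif21a, chr15:91049922-91050041, minus strand: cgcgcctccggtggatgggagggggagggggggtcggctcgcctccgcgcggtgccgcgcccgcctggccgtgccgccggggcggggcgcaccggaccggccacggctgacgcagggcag

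In these sequences the TTTGAA match begins 19 bases before the start in Kif11 and Kif15 and 17 bases before it in Kif22. It begins 3 bases after the start in Kif18b, 2 bases after it in Kif23 and 19 bases after it in Kif4. Further matches lie outside the printed stretch, 215 bases before the start in Kif22 and 234 in Kif15, and the only match of Kif2c, whose fitted difference was the largest of any kinesin, lies 103 bases before its start. A CCAAT match lies before it in each of the 6 except Kif15, at 45 bases before the start in Kif11, 54 in Kif22, 53 and 30 in Kif18b, 7 in Kif23 and 5 in Kif4. Over the full windows of 300 bases, 250 before the start and 50 after it, 24 of the 29 kinesins had a RefSeq sequence. TTTGAA was found in 7 of the 8 mitotic kinesins called lower, the exception being Kif18a, and in 0 of the 5 cargo kinesins called higher that had a sequence. Of all 9 cargo kinesins with a sequence, Kif1a alone held it, 44 bases before its start. Of the 6 kinesins in neither class, Kif27 alone held it, 191, 89 and 73 bases before its start. Among the 6098 tested genes with a sequence 13.7% held TTTGAA, and 20.2% did among all 27025 genes with such a sequence. CCAAT was found in 5 of the 8 mitotic kinesins called lower, in 2 of the 5 cargo kinesins called higher, Kif1b and Kif3a, and in 44.6% of tested genes. These are matches of letters in a fixed window, chosen with the expression results known, and binding was not measured.

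The kinesins that build the spindle were at the level of the background in neurons. Kif11, the kinesin-5 that slides antiparallel microtubules and pushes the poles apart, read 4.31, 4.54 and 4.31 on the neuron arrays and 8.67, 9.05, 8.91, 8.93 and 8.92 on the NSC arrays (normalized log2 signal). The groups were far apart and Kif11 was above background on no neuron array, so its difference has only a bound: after background correction it was at least 13.8-fold lower in neurons (limma adjusted p = 6.62e-11). A bound sets the mean of the brighter group against the mean of the dimmer one after raising each array of the dimmer group to the lowest signal of any probe above background there. It makes no allowance for spread, and an adjusted p printed beside a bound is that of the fitted difference. Bounds rest on the background correction, which takes an estimated background off every signal and so widens ratios. Without it the Kif11 signals differed 7.70-fold and the bound was at least 5.77-fold, a comparison added after the values were seen, and both forms are given for each mitotic kinesin. Kif15, a kinesin-12 that can hold the poles apart when Kif11 is blocked, read 4.54, 4.42 and 4.72 in neurons and 9.21, 8.99, 8.87, 9.10 and 8.97 in NSCs. It was at least 15.1-fold lower after the correction (adjusted p = 7.42e-11) and at least 6.26-fold lower without it. The Kif15 call rests on 1 of its 3 probes, since the other probes were above background nowhere.

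The motors that act on chromosomes and kinetochores included the kinesins that differed most. Kif2c, which removes tubulin from microtubule ends at centromeres and so corrects faulty attachments, read 4.33, 4.42 and 4.28 in neurons and 10.60, 10.62, 10.59, 10.59 and 10.62 in NSCs. In the deposited signals these were 66.4, 73.4 and 62.6 on the neuron arrays against 1483.3 to 1612.6 on the NSC arrays. The neuron readings were not above background, and Kif2c was at least 44.9-fold lower after background correction (adjusted p = 6.16e-12). Uncorrected, it differed 23.9-fold, with a bound of at least 17.4-fold. Kif22, a kinesin-10 that binds DNA and pushes chromosome arms toward the spindle equator, read 5.17, 5.42 and 5.38 in neurons and 10.65, 10.59, 10.76, 10.61 and 10.66 in NSCs. Unlike Kif2c it stayed above background on all 3 neuron arrays, with a difference of -5.33 (SE 0.10, adjusted p = 1.18e-11), or 40.2-fold lower. Those neuron signals lay just above the background: on Neuron 1 the lowest signal above background was 5.16, against 5.17 for Kif22. The size is therefore not firmly measured on the neuron side. That size also rests on the correction, since the difference was -4.47 with an offset of 50 in place of 16 and -4.08 on uncorrected signals, the authors' values included.

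Kif4, a chromokinesin that also works with Prc1 at the midzone, has 3 tested probes, all above background on every NSC array and no neuron array. The brightest read 4.70, 4.64 and 4.36 in neurons and 8.62, 8.73, 8.11, 8.38 and 8.56 in NSCs, at least 10.3-fold lower (adjusted p = 1.63e-09), or at least 4.49-fold without background correction. The others were at least 5.22-fold and at least 3.34-fold lower (at least 2.58-fold and 1.88-fold uncorrected), so the probes gave the same direction with different bounds. Both kinesin-8 genes fell as well. Kif18a, which damps the movements of chromosomes at the metaphase plate, read 4.45, 4.56 and 4.59 in neurons and 7.41, 7.72, 7.34, 7.15 and 7.46 in NSCs. It was at least 4.92-fold lower (adjusted p = 5.67e-09), or at least 2.47-fold uncorrected, the smallest bound among the brightest probes of the mitotic kinesins. Its second probe was above background on no array.

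Kif18b, which shortens astral microtubules, kept a dim signal in neurons on its brightest probe. Its brightest probe read 5.27, 5.59 and 5.88 in neurons, above background on all of them, and 8.99, 8.76, 8.97, 8.89 and 8.93 in NSCs. The difference was -3.33 (SE 0.13, adjusted p = 2.65e-09), and -2.34 without background correction. On Neuron 1 the lowest signal above background was 5.16, against 5.27 for this probe, so this size too is not firmly measured. A second Kif18b probe of similar brightness in NSCs read 4.65, 5.35 and 5.97 in neurons, with Neuron 1 not above background, and gave -3.56 (SE 0.23). The neuron arrays differed more on these probes (SD 0.30 and 0.66, n = 3) than the NSC arrays did (SD 0.09 and 0.08, n = 5), and on both probes Neuron 3 was highest and Neuron 1 lowest. Its dim probe was above background on 4 NSC arrays and no neuron array and was at least 1.29-fold lower (1.11-fold uncorrected).

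The kinesin-6 Kif23, which bundles midzone microtubules as part of centralspindlin and is needed for cytokinesis, read 4.53, 4.55 and 4.54 in neurons and 8.25, 8.19, 8.02, 7.97 and 7.89 in NSCs. The neuron arrays were at the background and the groups did not overlap. Kif23 was at least 7.73-fold lower after background correction (adjusted p = 3.22e-10) and at least 3.52-fold lower without it. The remaining mitotic kinesins, Kif20a, a kinesin-6 of the midzone, and Kif2b, have 1 probe each, which was above background nowhere, so nothing can be said of their change. Across the 8 tested genes the median of an array lay at 4.53, 4.55 and 4.56 in neurons and between 8.83 and 8.92 in NSCs. With the 6 genes seen in NSCs alone set at their bound, the median difference was -3.57 in place of -4.19. Fitted differences of at least 8-fold were found for 7 of the 8, against 2.03% of all genes in that direction. Only Kif22 and Kif18b among them were above background on the neuron arrays, Kif22 just above it and Kif18b close to it on Neuron 1. Without background correction 2 of the 8, Kif2c and Kif22, stayed past 8-fold, against 0.824% of all genes. The median was then -2.67, with all 8 genes still called lower.

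**Figure D2:**
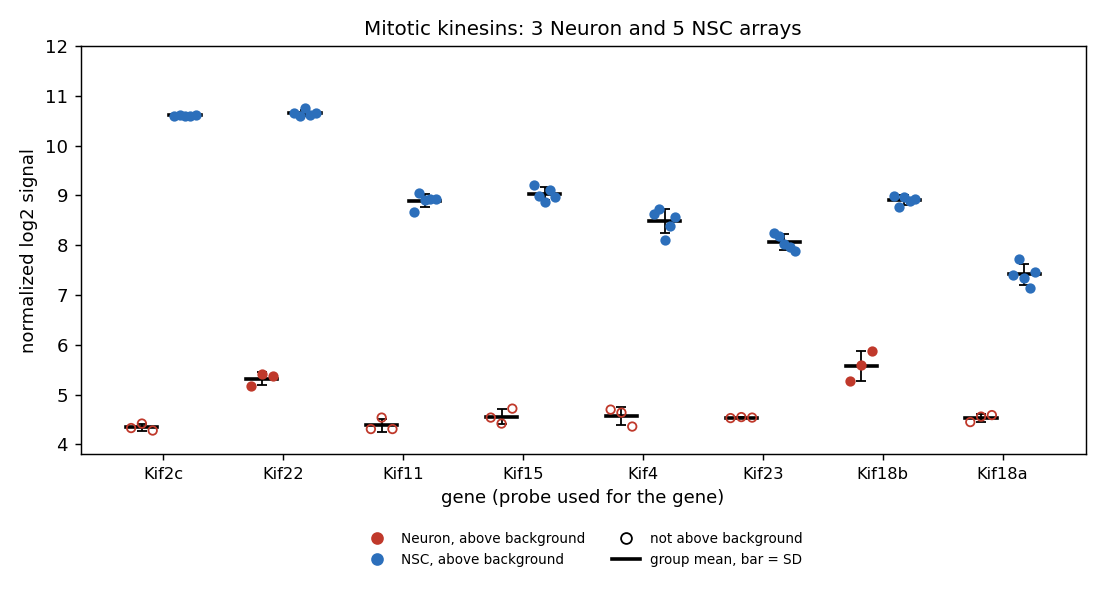
Normalized log2 signal (y axis) of the 8 tested mitotic kinesins (x axis, ordered by difference) on the 3 neuron arrays and the 5 NSC arrays, 1 point for each array, with group mean and SD. Filled points are above background and open points are not: only Kif22 and Kif18b keep filled points in neurons.

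Partners of the mitotic kinesins moved the same way. Of 16 listed genes 14 have a probe and 11 were tested. All 11 were lower in neurons, a direction called for 29.2% of all genes, with a median of -5.09. Of the 11, 4 were above background on NSC arrays alone and so could only differ downward. The other 7 were above background in both groups, where 26.9% of all genes were called lower. Prc1, the midzone bundler that recruits Kif4, was at least 125-fold lower (47.6-fold without background correction). Anln, a cytokinesis scaffold, differed by -6.14 and Plk1, a mitotic kinase, by -5.45. Anln was above background on 2 of the 3 neuron arrays and Plk1 on 1, both with a neuron mean of 5.06. The lowest signal above background on the neuron arrays was 5.05 to 5.16, so these sizes are not firmly measured. Cenpe, Ect2 and Hmmr were above background on no array. All 4 tested markers of dividing cells were lower, against 29.2% of all genes. Top2a, Cdk1 and Pcna were above background on no neuron array and so could only differ downward. Mcm2, above background in both groups, differed by -3.21. The summed level of the 4 was 167 to 206 in neurons and 3469 to 3937 in NSCs. In these bulk samples, fewer cells of a kind and less RNA per cell cannot be told apart.

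Cargo kinesins changed less, and mostly upward. The kinesin-2 gene Kif3a, which forms a motor with Kif3b or Kif3c and the adaptor Kifap3 for transport in cilia and axons, read 10.48, 10.38 and 10.58 in neurons and 9.42, 9.36, 9.26, 9.27 and 8.98 in NSCs. Every neuron array lay above every NSC array, a difference of 1.22 (SE 0.12, adjusted p = 3.74e-06), or 2.33-fold. The second Kif3a probe gave 1.10 (SE 0.11, adjusted p = 6.4e-06). Kif3c, the partner found mainly in neurons, read 10.21, 10.11 and 10.10 in neurons and 9.61, 9.60, 9.54, 9.63 and 9.72 in NSCs. It was higher by 0.52 (SE 0.09, adjusted p = 0.0004), but its dimmer probe, at 0.15 (adjusted p = 0.302), was not called and its groups overlapped. Kif3b was above background on 1 neuron array and no NSC array, and was not tested. Kifap3, which links the motor to cargo, was higher by 1.24. Kif17, the kinesin-2 of dendrites and cilia, was above background on no array.

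The neuronal kinesin-1 genes were detected in neurons only, and dimly. Kif5a, whose product carries neurofilaments and other axonal cargo, read 5.40, 5.15 and 5.77 in neurons and 4.48, 4.87, 4.28, 4.43 and 4.33 in NSCs. It was at least 1.19-fold higher (adjusted p = 0.000394), by 1 of its 3 probes. Kif5c read 5.56, 5.13 and 5.25 in neurons and 4.67, 4.42, 4.34, 4.31 and 4.27 in NSCs, at least 1.09-fold higher (adjusted p = 8.88e-05). Both probes were above background on every neuron array but on none of the NSC arrays, and both bounds are close to 1 because the neuron signals lie just above the background. On Neuron 2 Kif5c, at 5.13, was below the lowest signal above background on NSC 1 (5.23) and NSC 2 (5.27). The adjusted p-values belong to the fitted differences, 0.96 for Kif5a and 0.91 for Kif5c, whose NSC side is background. They do not test the bounds, so the size of either rise is not measured. Kif5b, the kinesin-1 of most tissues, was above background on 1 neuron array with 1 of its 2 probes, and was not tested. The kinesin light chain gene Klc1, whose product joins kinesin-1 to cargo, was higher by 1.15.

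The kinesin-3 genes did not move as a group. Kif1a, which carries synaptic vesicle precursors and is expressed mainly in neurons, was lower in the sorted neurons. It read 6.96, 6.53 and 6.81 on the neuron arrays and 7.23, 7.10, 7.23, 7.42 and 7.09 on the NSC arrays. The groups did not overlap but lay close, and the difference was -0.44 (SE 0.12, adjusted p = 0.00822). The Kif1a call was lost with median scaling (-0.24, adjusted p = 0.0913), a scaling that moved the median of all genes from 0.06 to 0.23. Kif13a, which moves recycling endosomes and the mannose 6-phosphate receptor, read 7.33, 7.06 and 7.08 in neurons and 6.46, 6.83, 6.68, 6.69 and 7.09 in NSCs. NSC 5 lay within the range of the neurons, and the rise of 0.41 (SE 0.14, adjusted p = 0.0248) was lost without Neuron 1 (0.32, adjusted p = 0.110) and with cyclic loess (0.29, adjusted p = 0.0823). Kif1c was above background on no array.

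Kif1b gave opposite results from its own probes. The gene makes isoforms with different tails, which carry different cargo in axons, and its 6 probes are paired in the platform annotation with 2 RefSeq transcripts, 4 with a transcript called A here and 2 with a transcript called B. The brightest probe of A read 11.25, 11.32 and 11.33 in neurons and 10.35, 10.18, 10.23, 10.28 and 10.34 in NSCs, higher by 1.03 (SE 0.09, adjusted p = 1.82e-06). The brightest probe of B read 9.92, 9.77 and 9.72 in neurons and 10.40, 10.36, 10.46, 10.37 and 10.29 in NSCs, a difference of -0.57 (SE 0.09, adjusted p = 0.000261). Neither probe showed an overlap between the groups.

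The dimmer Kif1b probes followed the same split. Of the other A probes, 1 was higher by 0.92 (adjusted p = 3.72e-05), 1 was above background on the neuron arrays only and at least 1.36-fold higher, and 1 at 0.51 was not called (adjusted p = 0.0553). The second B probe differed by -0.72 (adjusted p = 0.000616). The within-array difference between the brightest A and B probes was 1.50 ± 0.15 (SD, n = 3) in neurons and -0.10 ± 0.11 (SD, n = 5) in NSCs. The shift was 1.60, a contrast chosen after the values were seen. Each probe had already separated the groups, in opposite directions, so their difference had to separate them too and is given without a test. Among all 1856 genes with several tested probes, 33 or 1.78% had probes called in opposite directions, and Kif1b was the only kinesin among the 5 with several tested probes. Which transcripts each probe hybridises to was not tested. The mean of all 6 Kif1b probes differed by 0.33.

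**Figure D3:**
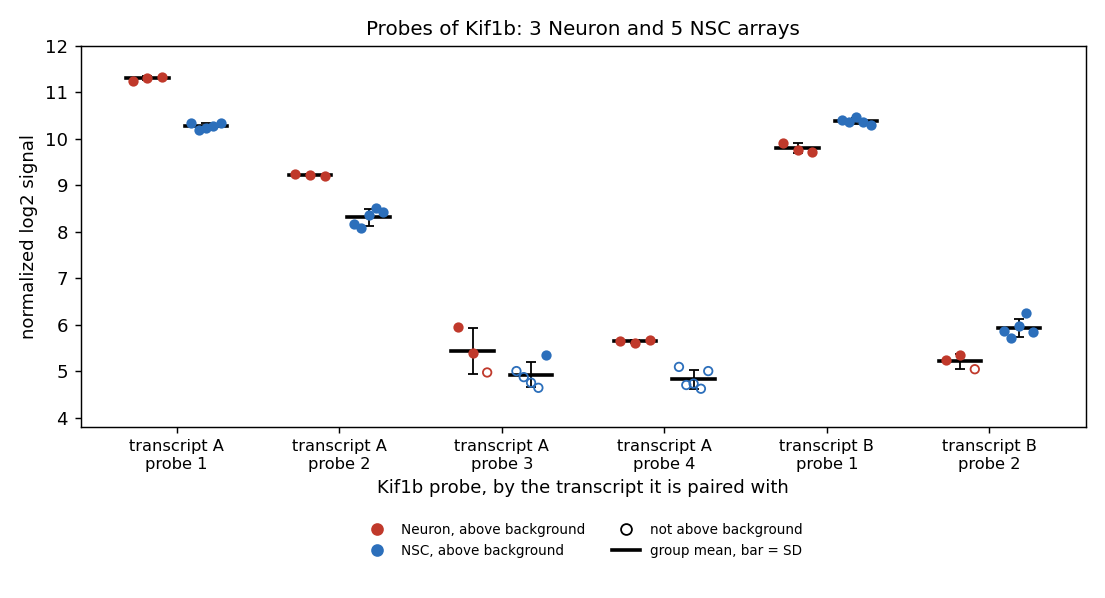
Normalized log2 signal (y axis) of the 6 Kif1b probes (x axis), 4 paired with transcript A and 2 with transcript B, on the 3 neuron and 5 NSC arrays, with group mean and SD. Neurons lie above NSCs on the A probes, with overlap on 1 of them, and below them on both B probes.

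The C-terminal kinesin Kifc2, a kinesin-14 found mainly in neurons, read 7.08, 7.15 and 7.38 in neurons and 6.19, 5.62, 5.97, 6.36 and 5.88 in NSCs. The groups did not overlap, and the difference was 1.20 (SE 0.16, adjusted p = 5.71e-05). The other Kifc2 probe was above background on no array. Kifc3 was above background on NSC 5 alone. With Kif5a and Kif5c at their bounds, the median difference of the 8 cargo kinesins was 0.46 in place of 0.94. Without Neuron 1 the filter left 6 of the 8, of which 5 were called, 4 higher and 1 lower. No cargo kinesin reached an 8-fold difference. The median of an array over these genes was 7.21, 7.11 and 7.23 in neurons and between 6.84 and 7.09 in NSCs.

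The kinesin that rose most belongs to neither class. Kif21a, a kinesin-4 that restrains microtubule growth and is abundant in axons, read 9.07, 9.28 and 9.05 in neurons and 5.65, 5.98, 6.34, 6.35 and 6.08 in NSCs. It was above background on all 8 arrays and higher by 3.05 (SE 0.16, adjusted p = 2.29e-08), or 8.30-fold. Fitted rises of at least 8-fold were found for 0.783% of all genes, and Kif21a was the only kinesin among them. Without background correction its difference was 2.29, and no kinesin rose 8-fold. Kif2a, a microtubule depolymerase of spindle poles that also trims axon branches, read 8.21, 7.70 and 8.15 in neurons and 7.46, 7.43, 7.55, 8.04 and 7.55 in NSCs. The groups overlapped through NSC 4 and Neuron 2, and only 1 of its 3 probes was above background. The rise of 0.41 (SE 0.16, adjusted p = 0.0461) was just past the threshold, and it was lost in 14 of 26 alternatives, among them without NSC 1 (0.37, adjusted p = 0.0878), NSC 2 (0.37, adjusted p = 0.0891), NSC 3 (0.40, adjusted p = 0.0775), NSC 5 (0.40, adjusted p = 0.0767), Neuron 1 (0.32, adjusted p = 0.172) or Neuron 3 (0.35, adjusted p = 0.153). The call held without NSC 4 (0.52, adjusted p = 0.00685), without Neuron 2 (0.57, adjusted p = 0.0148), with the replicate block (0.54, adjusted p = 0.0130) and with median scaling (0.63, adjusted p = 0.00258). Kif24, which acts at centrioles of cycling cells and holds back cilium formation, read 4.55, 4.73 and 4.67 in neurons and 5.72, 5.57, 5.75, 5.42 and 5.57 in NSCs. It was at least 1.41-fold lower (adjusted p = 1.27e-05), or 1.15-fold uncorrected, and, like most mitotic kinesins, above background on every NSC array and no neuron array. Kif9, Kif12 and Kif27 were above background on no array.

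**Figure D4:**
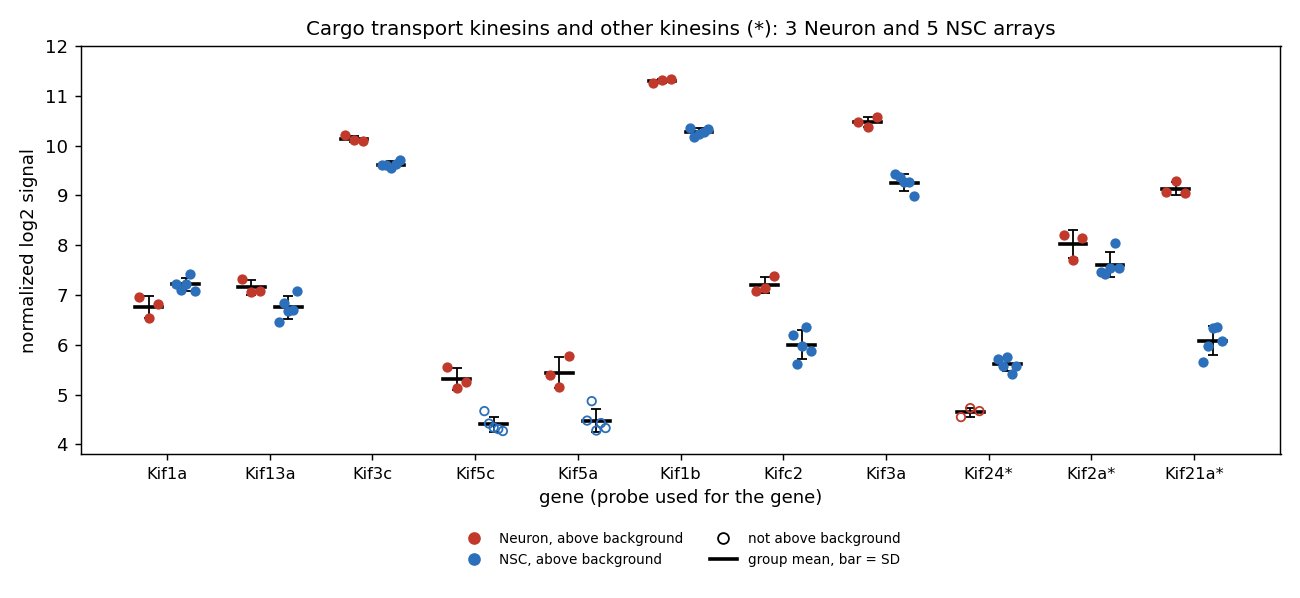
Normalized log2 signal (y axis) of the 8 tested cargo kinesins and the 3 kinesins of neither class, marked with an asterisk (x axis, ordered by difference within each class), on the 3 neuron and 5 NSC arrays, with group mean and SD. Filled points are above background and open points are not. Kif21a shows the widest gap, and Kif1a is the only cargo kinesin with the neurons below the NSCs.

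Genes that work with the cargo motors were called about as often as genes at large. Of 18 adaptors and other transport partners 13 were tested: 8 were higher, 1 was lower and 4 were not called, with a median of 0.48. The largest changes were those of Kifap3 (1.24), Fez1, an adaptor of kinesin-1 (1.16), and Klc1 (1.15). Grip1, which steers AMPA receptors on kinesin-1, differed by -0.67. Of 21 genes of dynein, the motor that runs the opposite way, and of its partners, 18 were tested: 9 were higher, 3 lower and 6 not called, with a median of 0.31. Here the largest changes were those of Nde1, a dynein regulator of dividing progenitors (-3.02), and of the dynein subunit genes Dync1li2 (1.32) and Dynll2 (1.14). The shares called in these lists, 69.2% and 66.7%, lay near the 64.6% of all genes (35.4% higher and 29.2% lower), and the direction of the lists was not tested.

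Some markers of other lineages also differed. Of 8 oligodendrocyte lineage genes 4 were tested and called higher in neurons, against 35.4% of all genes, but 3 of them, Fa2h, Gpr17 and Pdgfra, were above background on neuron arrays alone and could only differ upward. These 3 summed to 537 to 747 in neurons and 66 to 80 in NSCs. Olig1, above background on all arrays, made up nearly all of the summed level of the 4 (14389 to 15795 in neurons, 9197 to 12428 in NSCs) and differed by 0.51 (adjusted p = 0.00296). Mbp and Mog were above background on no array. Of 8 astrocyte markers 3 were tested and 2, Gja1 and Acsbg1, were lower, against 29.2% of all genes, while Aldh1l1 was not called. Acsbg1 and Aldh1l1 were above background on NSC arrays alone and could only differ downward. Gja1, above background on every NSC array and on 2 of the 3 neuron arrays, differed by -5.08. The summed level of the 3 was 97 to 106 in neurons and 2226 to 2474 in NSCs. Gfap, Aqp4, Apoe and Glul were above background on no array. The part of these other cells in the kinesin values was not tested.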

How the data were processed

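The deposited table gives each probe's mean bead brightness as a linear intensity, neither background-subtracted nor scaled by the authors, and a deposited detection score, a fraction from 0 to 1; 1 minus this score served as detection p. The authors' deposited log2 values, for which the submitters' processing notes name limma, matched the quantile-normalized log2 signal to 5e-09. Using limma 3.58.1 (R 4.3.3), neqc corrected the background, added an offset of 16 (which shrinks differences of dim genes), quantile normalized and took log2. The 10499 probes above background (detection p below 0.01) on 3 or more arrays were fitted with lmFit and eBayes, with group as the only term, and p-values were adjusted by Benjamini-Hochberg over all of them. Each gene was represented by its brightest tested probe. All 51 kinesin probes were matched to RefSeq by gene ID, with 0 symbols changed. Every kinesin was to be named, and of each partner list the 3 called genes that changed most; Grip1, the cell type markers and genes named by where they were above background were added after their values were seen. Members, roles and lists were chosen with earlier results of these data known. The same steps were run on simulated signals in which few probes changed. That run does not cover data such as these, where 64.6% of genes were called. No pair of arrays was identical. Same-numbered replicates did not deviate together (correlations -0.017, 0.014 and 0.015 across probes), so numbers were not used as pairs. Alternatives were other background corrections, scalings, filters, variance and probe rules, the authors' values, a replicate block, and leaving out each array. The number of arrays limits the precision.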

Additional observations from a re-analysis of the deposited data

Results flagged for a closer look

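Among the 19 tested kinesins, the 5 NSC arrays held 1 array far from the others for 1 gene. Kif2a read 8.04 on NSC 4 and 7.43 to 7.55 on the other NSC arrays, and the gap was 0.805 of the whole range, above the 0.71 that Dixon's test allows for 5 samples. Without NSC 4 the Kif2a difference was 0.52 (limma adjusted p = 0.00685), against 0.41 (adjusted p = 0.0461) with all arrays. Chance gives a gap above 0.71 in about 1 in 20 groups, and 19 groups were screened. The neuron arrays, being 3, were not tested in this way.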

How the results depend on the processing

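No kinesin changed direction under any of the alternatives run. All 8 tested mitotic kinesins stayed called lower in every setting that tested them, but their median difference moved: to -2.67 without background correction and with the authors' values, -2.99 with an offset of 50, -4.10 with median scaling, -4.43 with cyclic loess, -3.72 without a filter, -4.0 with the mean of a gene's probes, and between -4.26 and -4.13 when 1 array was left out, with either filter (-4.14 without Neuron 2). With detection on all 8 arrays 10 kinesins were tested and all 10 called, among them 2 mitotic kinesins (median -4.33), and 4 mitotic partners. The cargo median was 0.49 without background correction and with the authors' values, 0.48 with an offset of 50, 0.77 with detection on all 8 arrays, 0.41 without a filter, 0.66 with the mean of a gene's probes, and 0.77 to 0.98 when 1 array was left out (up to 1.0 with detection on 2 arrays). Leaving out 1 array gave 5 to 8 called cargo kinesins. The lowest count was without Neuron 1, when Kif5a and Kif5c no longer had 3 arrays above background and Kif13a was not called. The calls of Kif2a, Kif13a and Kif1a were lost in 14, 3 and 1 of their 26 alternatives, Kif2a also with cyclic loess (0.29) and without a filter (0.41). With the replicate block, which left out NSC 4 and 5, 19 kinesins were called, 8 mitotic and 8 cargo, with medians of -4.19 and 0.87, so the pairing of numbers changed no kinesin call. Of all genes, 4788 were called, 54.8% of them higher, against 66.1% with median scaling and 49.8% with cyclic loess. Signals near background limit what can be said of Kif5a, Kif5c, Kif24, the sizes of the Kif22 and Kif18b differences and the 10 untested kinesins. Bounds of the 6 mitotic kinesins seen in NSCs alone were 4.92-fold to 44.9-fold with background correction and 2.47-fold to 17.4-fold without it, an alternative chosen after seeing the data.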
